A study of Mus musculus with 32 samples.

Results

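This account follows 9 genes whose proteins carry amino acids or iron into mouse regulatory T cells: Slc3a2, Slc7a5, Slc7a6, Slc7a11, Slc7a1, Slc1a5, Slc38a1, Slc38a2 and Tfrc. They were taken by gene symbol, 9 of the 54087 genes listed for each library. The rule set no threshold on measured values, but earlier results of these data were known when the genes were chosen. Regulatory T cells (Tregs), a subset of CD4 T cells, restrain other immune cells, and their identity rests on the transcription factor Foxp3. Donor mice were 2.5 months old, on the C57BL/6 strain, and carried the Foxp3-IRES-GFP knock-in, which marks Foxp3-expressing cells with green fluorescent protein, so every group shared this allele. GFP-positive Tregs were purified and either sequenced without culture (resting) or cultured on plates coated with antibodies against CD3 and CD28, the receptors that trigger and costimulate T cells, with mouse IL-2 at 10 ng/ml in RPMI 1640 with glutamax and 10% serum. Cultures were taken after 18 h or 36 h. At each time they had no agonist, or 1 agonist of a tumour necrosis factor receptor family member. TNFR2 was engaged with 12 ng/ml of TNC-sc(mu)TNF80 (STAR2), 4-1BB with the antibody 3H3 at 10 µg/ml, DR3 with TL1A at 12 ng/ml and OX40 with OX40L at 100 ng/ml, so the doses were not matched. Each of the 11 groups had 3 libraries, except the OX40 agonist at 18 h with 2, which gave 32 libraries.

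Amino acids cross the T cell membrane through solute carriers with different substrates. The 4F2 heavy chain, encoded by Slc3a2, does not transport by itself: it pairs with a light chain of the Slc7 family and brings it to the surface. Iron arrives bound to transferrin, which the transferrin receptor, encoded by Tfrc, takes up by endocytosis. T cells are known to raise both kinds of uptake when they are activated and grow, and leucine entering through the Slc7a5 light chain is a known input to the growth kinase mTORC1.

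The best known sequence control in this gene group lies in iron handling. Iron-responsive elements are short RNA hairpins bound by the iron regulatory proteins: in a 3′ UTR they protect the transcript when iron is scarce, and in a 5′ UTR they hold back translation. A hairpin pattern was searched in the UTRs of GENCODE M21 transcripts. It held a bulged C, 5 paired bases (G to U pairs allowed), the loop CAGTGN with N other than G, and the 5 partner bases. At least 4 of 6 pairs were required in the lower stem. The pattern was found in 19 of 22500 protein-coding genes (0.08%). Among Tfrc and the 34 genes of an iron list, 4 held it. The Tfrc 3′ UTR held 4 distinct matches, starting 889, 1268, 1333 and 1380 bases after the stop codon. The ferritin genes Fth1 and Ftl1 and the iron exporter gene Slc40a1 each held 1 match in the 5′ UTR. The matches are shown because Tfrc changed most of the 9 genes and these partners are compared with it further on. Letters are DNA letters, 5′ to 3′, with the loop in capitals.
Tfrc match 1: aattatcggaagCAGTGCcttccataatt
Tfrc match 2: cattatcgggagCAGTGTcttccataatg
Tfrc match 3: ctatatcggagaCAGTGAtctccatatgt
Tfrc match 4: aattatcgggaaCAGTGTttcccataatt
Fth1: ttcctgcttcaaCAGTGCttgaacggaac
Ftl1: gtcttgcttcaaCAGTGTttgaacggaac
Slc40a1: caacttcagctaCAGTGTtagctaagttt

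Promoters of the members were read from RefSeq on build GRCm38.p6, as the 250 bases before each transcript start, and 6 of the 9 members matched an entry. Slc7a5, Slc1a5 and Slc38a1 had none. Both strands were searched for 4 motifs. CARE (TGATGNAA) is the composite element read by ATF4 in the amino acid response, and it matched in 1 of the 6 members, Slc7a11, against 3.91% of 27025 genes. ARE (TGACNNNGC), the core of the antioxidant response element, matched in Slc7a6, Slc7a1 and Slc38a2, against 11.52% of genes. The E-box bound by MYC (CACGTG) and the cyclic AMP element (TGACGTCA) matched in 0 of 6, against 6.86% and 1.77% of genes. The Slc7a11 stretch is shown because it holds 2 CARE matches, 1 on each strand. It covers bases 110 to 31 before the start, on the minus strand of chr3:50443644-50443723, with the matches in capitals.
Slc7a11 promoter: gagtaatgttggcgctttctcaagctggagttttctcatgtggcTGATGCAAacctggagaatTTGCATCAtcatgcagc
A match describes these letters and says nothing of binding.

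Total expected counts ranged from 11880270 to 38083925 per library, and 14313 genes were tested with edgeR's quasi-likelihood test, which gives every adjusted p below unless another tool is named. Levels are CPM, counts relative to TMM-adjusted library totals, as mean ± SD. A gene was called below an adjusted p of 0.05. The Treg and T cell markers Foxp3, Cd4, Cd3e, Il2ra, Ctla4 and Ikzf2 were above 0 in every group. They summed to a mean of 3540 CPM in resting cells, and 5881 and 4990 CPM in the controls at 18 h and 36 h. Summed B cell markers (6 genes) were 712.2 to 753.7 CPM in resting libraries and 260.4 to 422.7 CPM in the cultures, and 8 myeloid markers fell from 8.96 to 10.3 CPM summed in resting libraries to at most 1.23 CPM. In the controls at 18 h and 36 h, 9 erythroid and platelet markers summed to 0.703 and 0.12 CPM, against 4.06 CPM in resting cells, and 5 CD8 T and NK cell markers to 6.89 and 7.41 CPM, against 15.04 CPM. The NK marker Ncr1 was at 0 in resting cells and in these controls, and so was the platelet marker Pf4. These shifts run along with the contrast of resting and cultured cells, and their part in the results was not tested. A transcript of the ribosomal RNA locus varied from 741.4 to 26033.7 CPM between libraries and passed 10000 CPM in 6 of them, of which 2 were controls at 18 h. The labels do not say whether libraries of a group came from separate mice or cultures, so p-values measure the spread between these libraries, which may be technical. No group was cultured without stimulation, so the effects of culture, CD3, CD28 and IL-2 cannot be told apart. In bulk RNA, a change in the share of cells and a change in RNA per cell cannot be told apart either, and all levels are shares of RNA, not amounts per cell.

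Stimulation for 18 h raised the transcripts of 7 members by 1.44-fold to 10.5-fold. Slc38a2 was called 1.13-fold higher, a call that did not hold in every setting, and Slc7a11 had few counts throughout. Tfrc rose most, followed by the light chain Slc7a5, the arginine transporter Slc7a1 and the glutamine transporter Slc38a1. In CPM, Slc1a5 was back near its resting level at 36 h, which depends on the scaling, as given below. edgeR called 8 of 8 members higher at 18 h, Slc38a2 among them, with Slc7a11 kept apart. Of all genes tested, 80.9% were called at 18 h and 40.9% were called higher, so a call by itself sets these genes little apart from the rest. Tfrc and Slc7a5 ranked high by size: 2.05% of genes had a larger log2 fold change than Tfrc, and 2.82% had a larger one than Slc7a5. Among all called genes the median size of a change was 1.0 on the log2 scale, and Slc7a6, Slc1a5 and Slc38a2 changed by less. The median log2 fold change over the 8 members was 1.25, against -0.008 over all genes, where rises and falls offset each other.

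**Figure D1:**
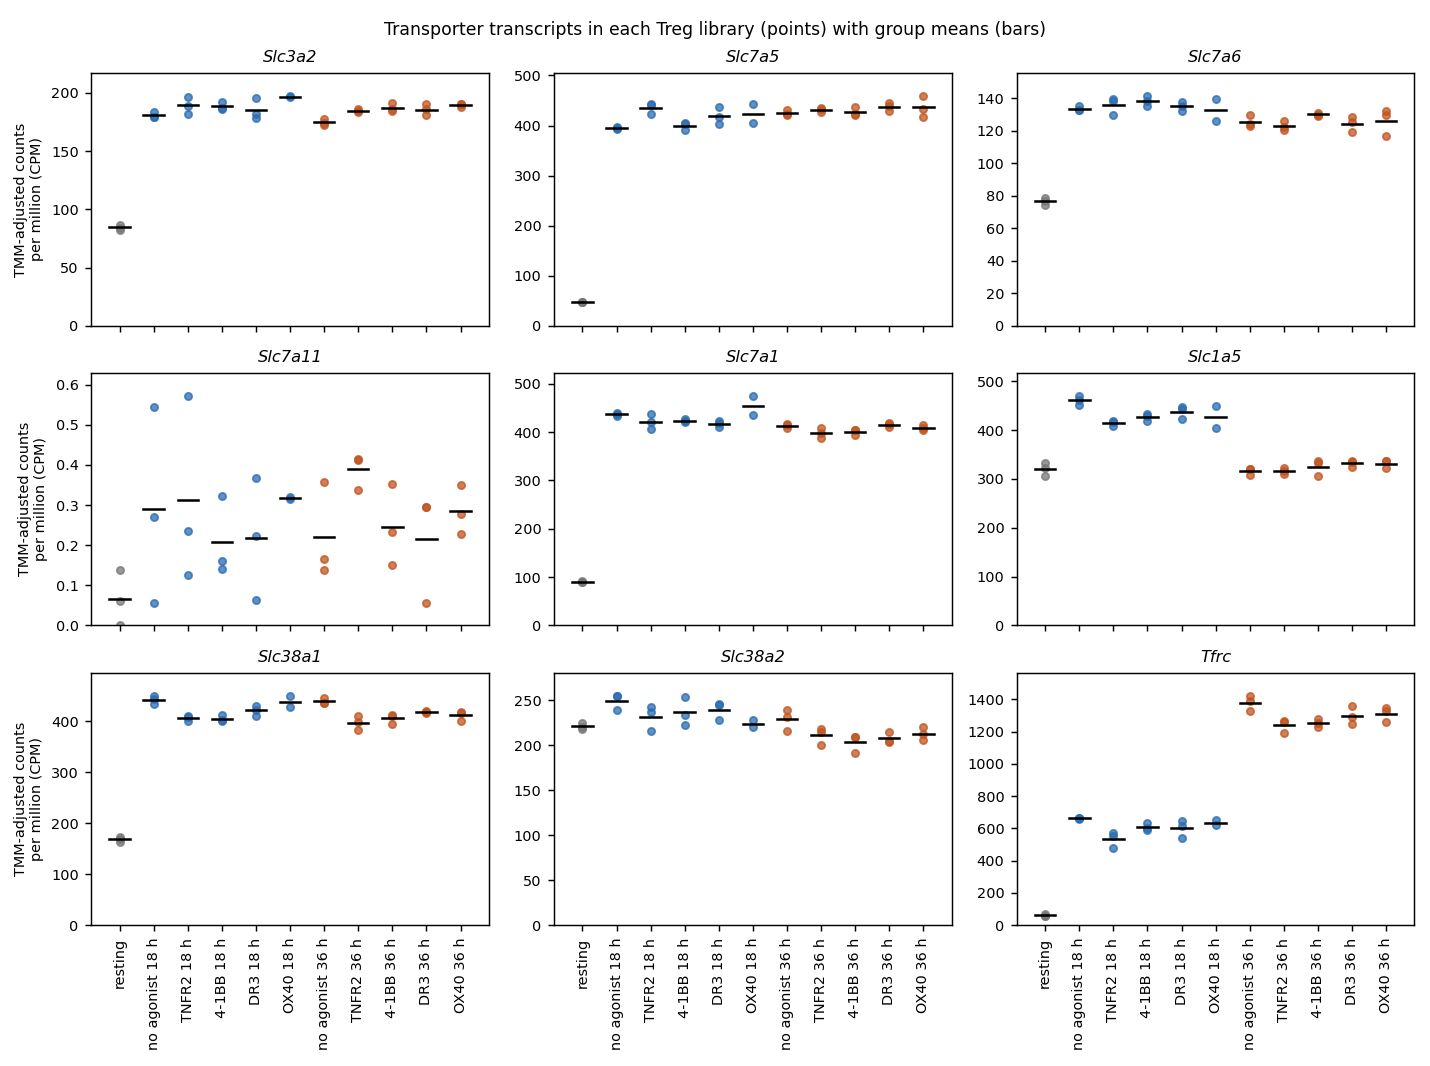
Level of each gene in CPM (linear axes from 0) in each of the 32 libraries, as points, with group means as bars, for resting cells (grey), 18 h (blue) and 36 h (orange). Tfrc, Slc7a5 and Slc7a1 were far below every culture in resting cells, and Slc7a11 stayed near 0 throughout. Slc1a5 was high at 18 h and, in CPM, back near its resting level at 36 h, which depends on the scaling.

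Slc3a2, the gene of the heavy chain, lies on chr19:8706882-8723369 (minus strand, mm10). It was at 84.26, 82.49 and 86.89 CPM in the 3 resting libraries, at 179.4, 179.7 and 183.5 CPM at 18 h, and at 172.8, 174.0 and 177.8 CPM at 36 h. Every culture library was above every resting library. The log2 fold change was 1.10 ± 0.04 (SE, adjusted p = 1.42e-30) at 18 h and 1.05 ± 0.04 (adjusted p = 5.44e-30) at 36 h. The 36 h and 18 h groups did not overlap, but their difference of -0.05 ± 0.03 was not called (adjusted p = 0.237).

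Slc7a5, or LAT1, carries leucine and other large neutral amino acids as the light chain of Slc3a2, and lies on chr8:121881150-121907694 (minus strand). Resting libraries held 47.3, 47.56 and 48.17 CPM, controls at 18 h held 393.0, 396.1 and 394.8 CPM, and controls at 36 h held 420.7, 423.9 and 430.5 CPM. The rise was 8.28-fold at 18 h (log2 3.05 ± 0.04, adjusted p = 5.83e-47) and 8.92-fold at 36 h (log2 3.16 ± 0.04, adjusted p = 8.03e-48). The groups at 18 h and 36 h did not overlap, and the step between them was a log2 difference of 0.11 ± 0.03 (adjusted p = 0.00759). That step was not called on TPM with limma (adjusted p = 0.0565) or without the 6 libraries high in the ribosomal transcript (adjusted p = 0.108). A gene of unnamed function overlaps Slc7a5 on the opposite strand, and the library kit does not mark strand, so reads of the pair cannot be told apart.

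Slc7a6, or y+LAT2, is a light chain that exchanges arginine for neutral amino acids (chr8:106168857-106198706, plus strand). It had 76.71 ± 2.02 CPM in resting cells, 133.6 ± 1.5 at 18 h and 125.6 ± 3.56 at 36 h. The rise was therefore much smaller than that of Slc7a5, with log2 fold changes of 0.80 ± 0.04 (adjusted p = 3.86e-22) and 0.71 ± 0.04 (adjusted p = 2.35e-20). The 3 resting libraries (74.61 to 78.63 CPM) lay below every culture library.

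Slc7a11, or xCT, is the light chain of the cystine and glutamate exchanger and lies on chr3:49892526-50443614 (minus strand), where several antisense and pseudogene loci overlap it. It was close to absent: the 32 libraries held 0 to 13 counts each, 161 in all. The 3 resting libraries held 3 counts together, and the controls at 18 h held 17. The ratio of these sums, scaled for depth, was 4.37 with an exact 95% interval of 1.26 to 23.3 that covers counting error only. At 36 h, 15 counts gave a ratio of 3.20 (0.904 to 17.2). edgeR called the 18 h rise (log2 2.02 ± 0.86, adjusted p = 0.0288), though libraries of the groups overlapped. DESeq2 did not (adjusted p = 0.0564), and the call was lost without resting library 2 (adjusted p = 0.0762) or 3 (adjusted p = 0.109). Slc7a11 could pass the filter on low counts through the culture groups alone, so its call is kept apart from the others.

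The make-up of the light chains per heavy chain changed with stimulation. TPM, which divides by transcript length, allows genes to be set side by side. The 6 light chain genes that pair with Slc3a2 (Slc7a5, Slc7a6, Slc7a7, Slc7a8, Slc7a10 and Slc7a11) summed to 0.891 ± 0.0486 of the Slc3a2 TPM in resting cells, against 1.43 ± 0.0277 after 18 h and 1.51 ± 0.0213 after 36 h. The 3 libraries of each culture group were above the 3 resting libraries. The exact permutation p was 0.1 (two-sided) for each time, the smallest that 3 against 3 libraries can give. Slc7a6 was the most abundant light chain in resting cells, at 0.437 ± 0.0319 per Slc3a2, against 0.268 ± 0.0132 for Slc7a5. At 18 h the order had turned, with 1.02 ± 0.0143 for Slc7a5 and 0.389 ± 0.0166 for Slc7a6.

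**Figure D2:**
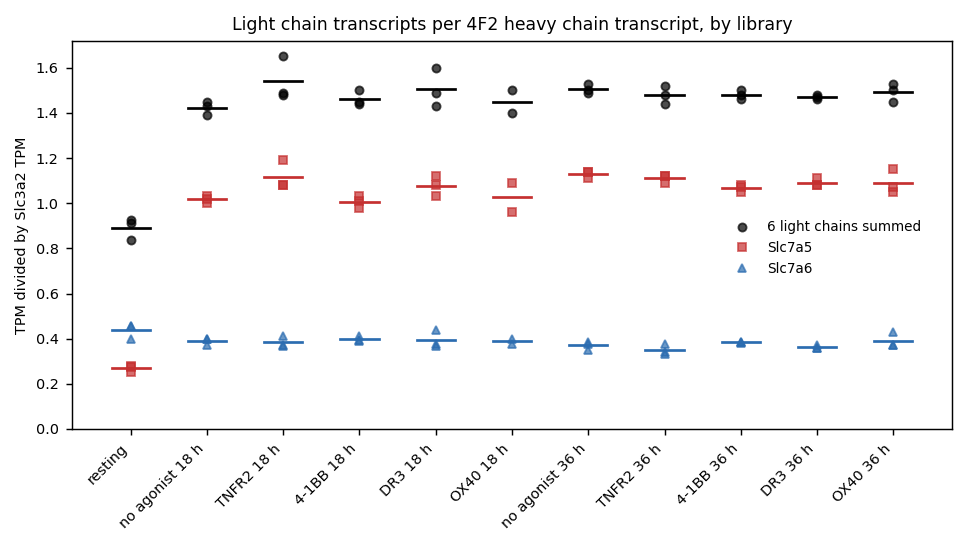
TPM of light chain genes divided by the TPM of the heavy chain gene Slc3a2 (linear axis from 0), with 1 point per library and bars for group means, for the 6 light chains summed (black), Slc7a5 (red) and Slc7a6 (blue). The sum moved from 0.891 in resting cells to 1.43 at 18 h while Slc7a5 moved from below Slc7a6 to above it.

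Slc7a10, the Asc-1 light chain for small neutral amino acids such as serine, is no member but takes part in that ratio. It fell from 14.02 ± 1.37 CPM in resting cells to 2.57 ± 0.103 at 18 h (log2 -2.44 ± 0.15, adjusted p = 1.02e-20) and 0.741 ± 0.328 at 36 h (log2 -4.24 ± 0.18, adjusted p = 4.16e-27). With only the members Slc7a5, Slc7a6 and Slc7a11 counted as light chains, the resting ratio was 0.706 and the 18 h ratio 1.41.

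Slc7a1, or CAT1, imports arginine and lysine without a heavy chain and lies on chr5:148327410-148399904 (minus strand). It was at 91.71, 90.46 and 89.31 CPM in resting libraries, at 437.2, 440.4 and 432.7 CPM at 18 h, and at 409.1, 416.1 and 414.9 CPM at 36 h. Resting and culture libraries did not overlap. The rise was 4.83-fold at 18 h (log2 2.27 ± 0.04, adjusted p = 1.30e-44) and 4.57-fold at 36 h (log2 2.19 ± 0.04, adjusted p = 2.77e-44). The fall from 18 h to 36 h was called at log2 -0.08 ± 0.03 (adjusted p = 0.0315), but only 4 of 9 other settings and 2 of 6 fits without 1 library kept that call.

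Slc1a5, or ASCT2, exchanges glutamine and other small neutral amino acids (chr7:16781340-16798274, plus strand). Its resting libraries held 331.6, 306.7 and 323.2 CPM, the 18 h controls 470.0, 461.6 and 451.0 CPM, and the 36 h controls 319.9, 307.4 and 320.3 CPM. All 18 h libraries were above the others, while the 36 h and resting libraries overlapped. It rose 1.44-fold by 18 h (log2 0.52 ± 0.04, adjusted p = 7.34e-18) and fell again by 36 h (log2 -0.54 ± 0.04 against 18 h, adjusted p = 1.16e-17). Against resting cells, the 36 h level differed by log2 -0.02 (95% interval -0.09 to 0.05, adjusted p = 0.607). That last value depends on the scaling. With a stricter filter on low counts it was -0.14 (adjusted p = 0.000634) and on TPM with limma it was -0.19 (adjusted p = 0.00143), settings under which the median of all genes shifted by -0.12 and -0.14.

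Slc38a1 (SNAT1) and Slc38a2 (SNAT2) take up glutamine and other small neutral amino acids together with sodium. They are neighbours on chromosome 15, 44478 bases apart (chr15:96571418-96642913 and chr15:96687392-96699730, both on the minus strand). Slc38a1 was at 168.9, 164.2 and 172.2 CPM in resting libraries, at 433.4, 443.6 and 450.7 CPM at 18 h and at 446.0, 437.1 and 436.0 CPM at 36 h. Every culture library was above every resting library, and the 2 times overlapped. The log2 fold change was 1.39 ± 0.03 at 18 h (adjusted p = 5.45e-37) and also 1.39 ± 0.03 at 36 h (adjusted p = 4.40e-37).

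Slc38a2, a well known target of amino acid starvation signals, barely moved. Resting libraries held 220.6, 225.0 and 217.5 CPM, 18 h controls 254.4, 239.1 and 255.1 CPM, and 36 h controls 231.4, 239.5 and 216.2 CPM. The 18 h libraries lay above the resting ones, and the 36 h libraries overlapped with them. The log2 fold change of 0.17 ± 0.05 at 18 h (adjusted p = 0.000924) was not called under the stricter filter (0.05, adjusted p = 0.266) or on TPM with limma (0.06, adjusted p = 0.307). At 36 h it was 0.05 (95% interval -0.04 to 0.14, adjusted p = 0.311). The TPM ratio of Slc38a1 to its neighbour was 0.771 ± 0.08 in resting cells, 1.52 ± 0.0756 at 18 h and 1.62 ± 0.124 at 36 h, with no overlap between resting and culture libraries.

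Tfrc encodes the receptor for iron-laden transferrin and lies on chr16:32608920-32632794 (plus strand). Resting libraries held 58.68, 70.97 and 58.97 CPM, 18 h controls 663.9, 662.0 and 660.9 CPM, and 36 h controls 1391, 1424 and 1328 CPM. The 3 groups did not overlap. The rise was 10.5-fold at 18 h (log2 3.39 ± 0.07, adjusted p = 3.83e-24) and 21.9-fold at 36 h (log2 4.45 ± 0.07, adjusted p = 1.16e-26). From 18 h to 36 h it rose by a further log2 1.06 ± 0.06 (adjusted p = 1.49e-13). The effective transcript length of Tfrc in the RSEM tables was 3557 ± 495 bases in resting libraries and 4260 ± 67.0 bases at 36 h, and on TPM the log2 ratio of means was 3.02 at 18 h and 4.02 at 36 h. On TPM the log2 ratio of Slc3a2, whose effective length was 1477 ± 22.2 bases in resting libraries and 1497 ± 16.2 at 18 h, was also lower than by counts, at 0.93 for 18 h.

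**Figure D3:**
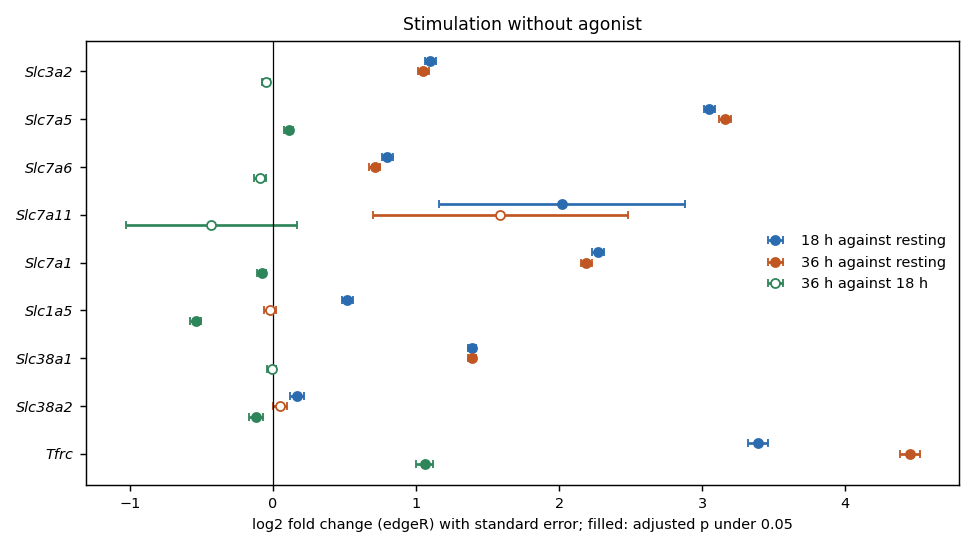
edgeR log2 fold changes (x axis, with standard errors) of the 9 genes for 18 h against resting (blue), 36 h against resting (orange) and 36 h against 18 h (green), filled where the adjusted p was under 0.05. Between 18 h and 36 h, Tfrc rose by 1.06 and Slc7a5 by 0.11, while Slc1a5 fell by 0.54, Slc38a2 by 0.12 and Slc7a1 by 0.08.

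At 36 h against resting cells, 6 of the 8 members other than Slc7a11 were called, all higher, against 84.5% of all genes called and 42.4% called higher. Slc1a5 and Slc38a2 were not called, nor was Slc7a11 (log2 1.59 ± 0.89, adjusted p = 0.0918). Between 18 h and 36 h, 5 members were called, against 52.2% of all genes. Tfrc and Slc7a5 were higher at 36 h, and Slc1a5, Slc38a2 and Slc7a1 were lower. The Slc38a2 value was log2 -0.12 ± 0.05 (adjusted p = 0.0221), and 3 of 6 fits without 1 library kept that call. That between-time count was 3 without control library 1 of 18 h, 2 without the 6 libraries high in the ribosomal transcript, and 2 on TPM with limma.

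The share each member took of the group's summed TPM moved accordingly. The sum was 672.2 ± 8.39 TPM in resting cells, 1456 ± 25.6 at 18 h and 1588 ± 28.4 at 36 h. Slc1a5 held 41.9 ± 1.34% of it in resting cells, 25.4 ± 0.545% at 18 h and 15.6 ± 0.677% at 36 h. Tfrc held 4.95 ± 1.29%, 18.5 ± 0.687% and 33.8 ± 1.04%. Thus the most abundant member per length was Slc1a5 in resting cells (281.8 ± 12.4 TPM) and at 18 h (369.7 ± 8.34 TPM), and Tfrc at 36 h (536.8 ± 21.0 TPM).

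Across the 11 group means, on log2 CPM, Slc3a2, Slc7a5, Slc7a6, Slc7a1 and Slc38a1 ran together, with Pearson r from 0.96 to 1.0. Tfrc followed them less closely, with r from 0.78 for Slc7a6 to 0.91 for Slc7a5. Slc1a5 and Slc38a2 had r = 0.80 with each other. These are descriptions over 11 means, where the resting group stands far from the rest. By the same measure, the genes most like Tfrc were Cenpk (r = 0.999), a kinetochore gene, and Hnrnpa2b1 (r = 0.998), an RNA-binding protein gene. Those most like Slc7a5 were Psmd7, a proteasome gene (r = 0.9997) and Noc4l (r = 0.9995), a ribosome assembly gene. For Slc7a1 they were Umps (r = 0.9991), of pyrimidine synthesis, and Dkc1 (r = 0.9989), of RNA modification. The likest genes were Dcp1a and Mthfd1l for Slc3a2 (both r = 0.9981), Wdr77 (r = 0.9972) and Rcl1 (r = 0.9971) for Slc7a6, and Rars2 (r = 0.998) and Isg20l2 (r = 0.997) for Slc38a1. Likeness was weaker for Slc1a5, with Snhg20 (r = 0.9797) and Ptprs (r = 0.9788), for Slc38a2, with Cfap97 (r = 0.9471) and Zkscan8 (r = 0.9394), and for Slc7a11, with Syce1 (r = 0.9215) and Spire2 (r = 0.9201).

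Whether an agonist altered these transporters was asked by comparing each agonist with the culture of the same time that had none. The changes were small. Of 72 comparisons (9 genes, 4 agonists, 2 times), 15 were called, 4 higher and 11 lower, none beyond 0.31 on the log2 scale. Of all genes, 13.3% to 31.1% were called by comparison, so this count does not set the members apart. The 4 comparisons of a time share the same control libraries. At 18 h summed B cell markers were 365.3 to 394.6 CPM under TNFR2 stimulation, 405.3 to 422.7 CPM under 4-1BB stimulation, 321.7 to 336.8 CPM under DR3 and 339.8 to 350.0 CPM under OX40, all above the 293.0 to 315.6 CPM of the controls. At 36 h they were 286.0 to 294.8 CPM under 4-1BB stimulation, above the controls at 267.1 to 281.4 CPM, and the other agonist groups overlapped with the controls. At 18 h summed Treg and T cell markers were 5407 to 5750 CPM with the TNFR2 agonist and 5592 to 5787 CPM with 4-1BB. With DR3 they were 5571 to 5837 CPM, and these groups lay below the controls at 5869 to 5904 CPM. At 36 h the same agonists gave 4610 to 4864, 4623 to 4684 and 4640 to 4716 CPM, below 4902 to 5042 CPM in controls. The OX40 groups overlapped with the controls at both times. The part of the B cell and the Treg and T cell markers in the differences was not tested. Slc38a1, Slc38a2 and Tfrc had estimates below 0 in 8 of 8 comparisons, and Slc3a2 and Slc7a5 had estimates above 0 in 8 of 8, most of them not called. In other settings the lowest estimate was -0.04 for Slc3a2 and -0.01 for Slc7a5. Of the 15 calls, 3 held in every other setting and every fit without 1 library: Tfrc and Slc38a1 with the TNFR2 agonist at 18 h, and Slc38a1 with the TNFR2 agonist at 36 h.

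**Figure D4:**
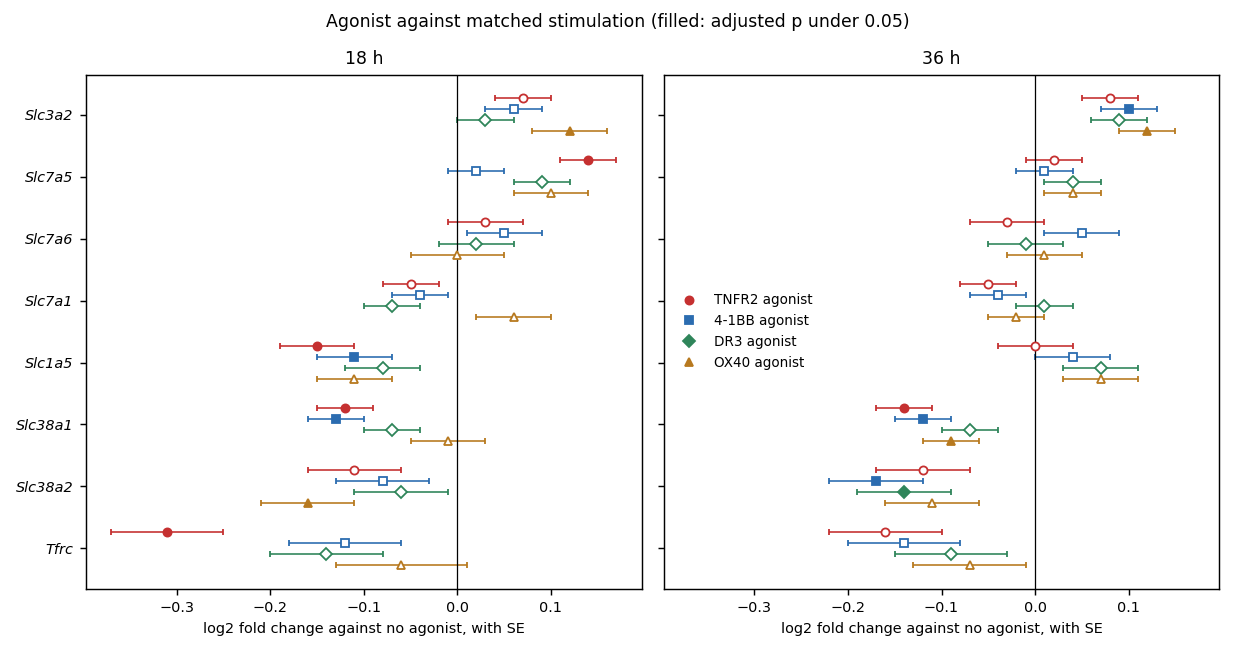
edgeR log2 fold changes with standard errors for each agonist against the culture without agonist at 18 h (left) and 36 h (right), filled where the adjusted p was under 0.05. Slc7a11 is left out because of its low counts. Points of Slc3a2 lie to the right of 0 and those of Slc38a1, Slc38a2 and Tfrc to the left, with Tfrc under the TNFR2 agonist at 18 h farthest out at -0.31.

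The heavy chain Slc3a2 was called higher with the OX40 agonist at 18 h (log2 0.12 ± 0.04, adjusted p = 0.0191) and at 36 h (0.12 ± 0.03, adjusted p = 0.0129), and with the 4-1BB agonist at 36 h (0.10 ± 0.03, adjusted p = 0.0282). The OX40 libraries of 18 h held 196.1 and 197.2 CPM and those of 36 h held 190.7, 187.5 and 190.6 CPM, each above all 3 controls of their time. The 4-1BB libraries at 36 h held 186.3, 191.1 and 184.5 CPM, also above their controls. Of the fits without 1 library, 1 of 5, 3 of 6 and 2 of 6 kept these calls. The other 5 estimates lay between 0.03 and 0.09.

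Slc7a5 was called higher with the TNFR2 agonist at 18 h, where the libraries held 441.8, 442.4 and 423.4 CPM, all above the controls at 393.0 to 396.1 CPM. The log2 fold change was 0.14 ± 0.03 (adjusted p = 0.000948). It kept its size but not its call without the 6 libraries high in the ribosomal transcript (0.13, adjusted p = 0.152), which left 1 control at 18 h. Its other agonist estimates were 0.01 to 0.10 and were not called. Slc7a6 and Slc7a1 were called with no agonist, with estimates from -0.03 to 0.05 and from -0.07 to 0.06. Slc7a11 was not called either, with 10 to 22 counts per agonist group.

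Slc1a5 was called lower at 18 h with the TNFR2 agonist (415.6, 408.8 and 419.2 CPM, log2 -0.15 ± 0.04, adjusted p = 0.000911). With the 4-1BB agonist it was at 433.4, 429.7 and 419.2 CPM (log2 -0.11 ± 0.04, adjusted p = 0.0216). Both groups lay below the 3 controls, at 451.0 to 470.0 CPM. The 4-1BB call was kept by 2 of 6 fits without 1 library. At 36 h no estimate was above 0.07 and none was called. A test of the difference between the 36 h and 18 h effects gave 0.15 to 0.18 for the 4 agonists, with adjusted p values of 0.0565 to 0.128 and unadjusted p values of 0.00216 to 0.00644, so this difference was not called.

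Slc38a1 had the most calls of the 9 genes, 5 of 8 comparisons, all lower. With the TNFR2 agonist it was at 408.8, 401.4 and 410.3 CPM at 18 h (log2 -0.12 ± 0.03, adjusted p = 0.00227) and at 399.4, 383.1 and 411.2 CPM at 36 h (log2 -0.14 ± 0.03, adjusted p = 0.000425). All of these were below the controls, which held 433.4 to 450.7 CPM at 18 h and 436.0 to 446.0 CPM at 36 h. With the 4-1BB agonist the log2 fold change was -0.13 ± 0.03 (adjusted p = 0.00162) at 18 h and -0.12 ± 0.03 (adjusted p = 0.00467) at 36 h, and with the OX40 agonist at 36 h it was -0.09 ± 0.03 (adjusted p = 0.0354). The last of these calls was kept by 1 of 6 fits without 1 library. In 7 of 8 comparisons no agonist library reached the controls, the exception being the OX40 agonist at 18 h (428.1 and 449.9 CPM, log2 -0.01 ± 0.04). The share of all genes that separated likewise is not given here, and the comparisons of a time share their controls.

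Slc38a2 was called lower with the OX40 agonist at 18 h (227.9 and 219.9 CPM, log2 -0.16 ± 0.05, adjusted p = 0.0281). At 36 h it was called lower with the 4-1BB agonist (191.2, 208.8 and 209.6 CPM, log2 -0.17 ± 0.05, adjusted p = 0.00476) and the DR3 agonist (204.9, 203.7 and 214.5 CPM, log2 -0.14 ± 0.05, adjusted p = 0.0333). These 3 groups lay below their controls. Leaving out 1 library kept the calls in 1 of 5, 4 of 6 and 2 of 6 fits.

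Tfrc had the largest agonist difference of these genes. With the TNFR2 agonist at 18 h it was at 550.3, 479.8 and 568.7 CPM, below the controls at 663.9, 662.0 and 660.9 CPM. The log2 fold change was -0.31 ± 0.06 (0.805-fold, adjusted p = 0.000318), and it ranged from -0.35 to -0.25 without 1 library and from -0.34 to -0.28 over the other settings. At 36 h the TNFR2 libraries, at 1267, 1191 and 1261 CPM, were again below the controls, but log2 -0.16 ± 0.06 was not called (adjusted p = 0.065). The difference between both times was 0.16 ± 0.09 (adjusted p = 0.360). The other agonists had estimates of -0.14 to -0.06, not called, and every agonist library was below the controls in 6 of 8 comparisons. How often other genes separated in this way is not given here, and the comparisons of a time share their controls.

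The calls by agonist can be read against all genes. With the TNFR2 agonist 4 members were called at 18 h, against 31.1% of genes, and 1 at 36 h, against 24.8%. The 4-1BB agonist gave 2 (25.8% of genes) and 3 (22.5%), and the OX40 agonist gave 2 (19% of genes) and 2 (13.3%). The DR3 agonist gave 0 at 18 h (19.6% of genes) and 1 at 36 h (13.4%). Its 18 h count of 0 stood beside 5 members with an unadjusted p under 0.05 in edgeR, and DESeq2 called 1. Among all called genes, the median size of a change was 0.25 to 0.32 on the log2 scale in each comparison, and each member call except that of Tfrc was smaller than that.

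Agonists were also compared with each other, at doses that were not matched. At 18 h a joint test of any difference among the 4 called Slc7a1 (adjusted p = 0.038), Tfrc (adjusted p = 0.039) and Slc38a1 (adjusted p = 0.049), against 14.3% of all genes. At 36 h it called none of the 9, against 9.06% of all genes, with none below an unadjusted p of 0.05 in edgeR and 0 calls in DESeq2. Of 108 pair tests over 12 pairs of groups, 6 were called, all at 18 h. Tfrc was lower with the TNFR2 than with the OX40 agonist (log2 -0.26 ± 0.07, adjusted p = 0.0213), as were Slc38a1 (-0.11 ± 0.04, adjusted p = 0.0428) and Slc7a1 (-0.11 ± 0.04, adjusted p = 0.0401). Slc7a5 was higher with the TNFR2 than with the 4-1BB agonist (0.13 ± 0.03, adjusted p = 0.0206). Slc38a1 was lower with the 4-1BB than with the OX40 agonist (-0.11 ± 0.04, adjusted p = 0.0494), and Slc7a1 was lower with the DR3 than with the OX40 agonist (-0.13 ± 0.04, adjusted p = 0.0313). None of the 6 held in every fit without 1 library, and all but that of Slc7a5 involve the OX40 group of 2 libraries. The 54 pair tests at 36 h gave 0 calls, with 2 unadjusted p values under 0.05 in edgeR and 0 calls in DESeq2. At 18 h the share of all genes called was 5.56% for TNFR2 against 4-1BB, 3.74% for TNFR2 against DR3, 8.19% for TNFR2 against OX40, 8.54% for 4-1BB against DR3, 4.26% for 4-1BB against OX40 and 4.12% for DR3 against OX40. At 36 h, in the same order, it was 3.7%, 3.56%, 4.02%, 5.43%, 3.63% and 1.7%. The difference between an agonist's effects at 36 h and 18 h was called for 0 of 36 tests on the members, against 6.69% of genes for TNFR2, 4.37% for 4-1BB, 2.31% for DR3 and 3.48% for OX40, with 5 unadjusted p values under 0.05 in edgeR and 0 calls in DESeq2.

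Other genes of these pathways were described from 6 lists, each by its count of calls and its median, beside 80.9% of all genes called and a median of -0.008 over all genes at 18 h. The share called was 73.9% in the list of other amino acid transporters, 100% in the iron and synthetase lists, 97.2% in the sensing list, 93.3% in the glutathione and cystine list and 90.9% in the regulators. Among 23 tested transporters of amino acids outside the 9, 9 had risen and 8 had fallen by 18 h, and the median log2 fold change was -0.04. The neutral amino acid exchanger Slc1a4 (ASCT1) rose from 0.935 ± 0.161 to 12.23 ± 0.906 CPM (log2 3.69 ± 0.18, adjusted p = 4.82e-24), and the taurine transporter Slc6a6 rose from 132.1 ± 5.23 to 247.7 ± 8.41 CPM (log2 0.91 ± 0.04, adjusted p = 2.38e-27). The endosomal peptide and histidine transporter Slc15a3 rose as well (log2 1.90 ± 0.10, adjusted p = 2.22e-23). The leucine carrier Slc43a2 (LAT4), which needs no heavy chain, fell from 93.63 ± 7.69 to 29.91 ± 0.974 CPM (log2 -1.64 ± 0.05, adjusted p = 6.30e-31). Thus Slc43a2 moved opposite to Slc7a5, while Slc43a1, a relative of Slc43a2 in the same list, moved in the same direction as Slc7a5. Slc43a1 rose from 3.88 ± 0.564 to 7.08 ± 0.953 CPM (log2 0.87 ± 0.14, adjusted p = 4.97e-07).

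**Figure D5:**
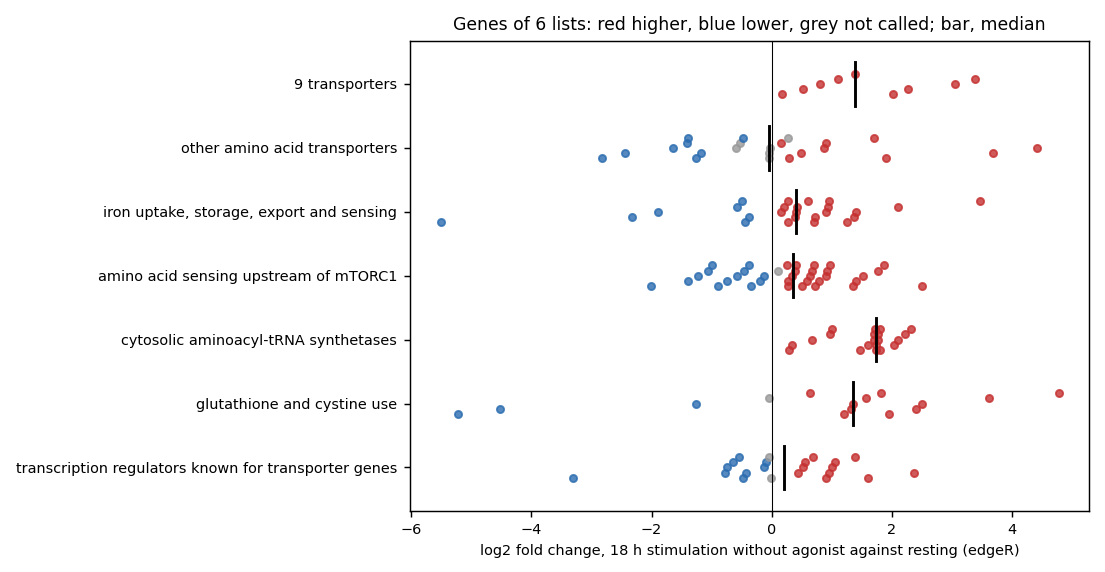
edgeR log2 fold changes at 18 h without agonist against resting cells for the 9 transporters and the tested genes of 6 lists, red where called higher, blue where called lower and grey where not called, with list medians as black bars (Slc7a11 is among the 9). The aminoacyl-tRNA synthetases lie wholly to the right of 0 with a median of 1.73, while the other amino acid transporters spread to both sides around -0.04.

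Of 25 tested iron genes, 18 had risen and 7 had fallen by 18 h, and the median was 0.40. The iron chaperone gene Pcbp1 rose from 220.6 ± 3.73 to 576.2 ± 4.99 CPM (log2 1.38 ± 0.04, adjusted p = 3.44e-35), and Slc39a14, which carries iron not bound to transferrin, rose by log2 1.25 ± 0.05 (adjusted p = 8.29e-27). Cisd1 and Nfs1, of iron-sulfur clusters, rose by log2 2.11 ± 0.10 (adjusted p = 9.86e-25) and 0.94 ± 0.06 (adjusted p = 1.28e-20). Of the genes with a hairpin match in the 5′ UTR, Fth1 went from 378.6 ± 9.35 to 290.1 ± 3.69 CPM (log2 -0.38 ± 0.04, adjusted p = 1.29e-13) and Ftl1 from 334.5 ± 12.5 to 373.8 ± 1.23 CPM (log2 0.16 ± 0.04, adjusted p = 0.00041). Slc40a1, or ferroportin, the exporter of iron, was chosen after its values were seen. It had 189 counts over the resting libraries (4.33 CPM), 5 over the 18 h controls and 0 over the 36 h controls. It was 49.0 times higher in resting cells than at 18 h (exact 95% interval 20.6 to 153, counting error only), and at least 98.6-fold higher than at 36 h, against a floor of 3 counts over the group. Myeloid markers and erythroid and platelet markers were also lower in culture, as given above, and their part in the Slc40a1 result was not tested.

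The cytosolic aminoacyl-tRNA synthetases, which load amino acids onto tRNA, moved in 1 direction: 20 of 20 were higher at 18 h, with a median of 1.73, and 20 of 20 at 36 h. Iars rose most among them, from 72.47 ± 2.91 to 364.0 ± 9.12 CPM (log2 2.33 ± 0.04, adjusted p = 1.52e-42), followed by Gars (2.23 ± 0.04, adjusted p = 5.04e-42), Mars (2.11 ± 0.04, adjusted p = 8.45e-40) and Rars (2.04 ± 0.04, adjusted p = 1.99e-39). On TPM, Vars was the exception: its log2 fold change was 0.29 by counts and -0.23 on TPM.

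Among 36 genes of amino acid sensing upstream of mTORC1, 22 had risen and 13 had fallen by 18 h, and the median was 0.36. The Rag GTPase gene Rragd rose from 29.17 ± 0.961 to 106.4 ± 2.49 CPM (log2 1.87 ± 0.05, adjusted p = 1.17e-36), and Sec13, of the GATOR2 complex, rose by 1.36 ± 0.04 (adjusted p = 8.73e-32). The sestrins, which restrain mTORC1 when leucine is low, were split. Sesn1 fell from 130.3 ± 1.73 to 32.25 ± 1.08 CPM (log2 -2.01 ± 0.05, adjusted p = 4.05e-36) and Sesn3 fell by 1.23 on the log2 scale (adjusted p = 1.89e-32), while Sesn2 rose by 0.90 ± 0.09 (adjusted p = 3.91e-13).

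In the glutathione and cystine list, 11 of 15 were higher and 3 lower, with a median of 1.35. Txn1 (thioredoxin) rose from 52.79 ± 2.41 to 299.7 ± 5.64 CPM (log2 2.50 ± 0.05, adjusted p = 1.28e-41) and Txnrd1, its reductase, by 2.41 ± 0.04 (adjusted p = 9.65e-45). Prdx1 rose by 1.83 ± 0.04 (adjusted p = 1.20e-39) and Gsr, which reduces oxidized glutathione, by 1.58 ± 0.05 (adjusted p = 3.49e-30). The cystine importer Slc7a11 stayed at or below 13 counts per library in the same samples. Of 22 regulators known for transporter genes, 11 were higher and 9 lower, with a median of 0.21. Myc rose from 142.5 ± 2.66 to 742.3 ± 4.21 CPM (log2 2.38 ± 0.04, adjusted p = 7.63e-45), and Mxd4, a repressor that competes for its partner Max, fell from 389.5 ± 8.26 to 39.63 ± 0.817 CPM (log2 -3.30 ± 0.05, adjusted p = 6.04e-45). Nfkb1 rose by 1.05 ± 0.03 (adjusted p = 2.14e-32) and Nfkb2 by 1.39 ± 0.04 (adjusted p = 4.92e-35).

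With agonists, the median log2 fold change of a list lay between -0.14 and 0.17 in every comparison, against -0.012 to 0.002 over all genes. The list genes described next were picked for their small p with agonists, so their sizes are not comparable with those of the members. Slc7a10, which had fallen with stimulation, was higher with each agonist at both times (8 of 8 comparisons called), by log2 0.77 to 2.05. With the 4-1BB agonist at 18 h it was at 10.64 CPM, against 2.57 in the controls (log2 2.05 ± 0.15, adjusted p = 1.93e-16). Slc15a3 was called higher in 8 of 8 (log2 0.31 to 0.89), and the lysosomal proline and tryptophan transporter Slc36a4 was called lower in 8 of 8 (-0.72 to -0.18). The metal transporter Slc39a8 was lower in 8 of 8 (-0.81 to -0.25), the iron-sulfur scaffold gene Iscu was higher in 8 of 8 (0.19 to 0.73) and Fth1 was higher in 7 of 8 (0.09 to 0.24). Gpx4, which uses glutathione to reduce lipid peroxides, was higher in 8 of 8 (0.28 to 0.64), as were Gclm (0.15 to 0.33), Sesn2 (0.30 to 0.72) and Vars (0.18 to 0.43). Sesn3 was lower in 7 of 8 (-0.41 to -0.05), while Rragd, Aars and Txnrd1 were each higher in 5 of 8 and Lars in 3 of 8. Nfkb2 was higher in 8 of 8 (0.62 to 1.03), as was its partner Relb (0.24 to 0.66), and Mxd4 was lower in 8 of 8 (-1.03 to -0.36). The 4 comparisons at a time share their controls, so these counts are not independent of each other.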

How the data were processed

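RNA of purified mouse Tregs was made into libraries with SMART-Seq v4 Ultra Low Input, per the labels' protocols. Reads were processed by the authors with FastQC, Trimmomatic, STAR 2.5.3a and RSEM 1.2.28 on mm10, per the submitters' processing notes; settings and annotation release: not given in the sources used here. Deposited was 1 gene table per library with RSEM expected counts, TPM values and effective lengths. Whole-number rounding preceded the fits. Of the gene symbols, 53973 of 54087 matched 1 gene of GENCODE M21, which supplied coordinates and UTRs; promoters came from RefSeq GRCm38.p6.

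Genes passing edgeR's filterByExpr (14313) were scaled by TMM and fitted over all 11 groups with edgeR 4.0.16 in R 4.3.3 (glmQLFit, glmQLFTest), without covariates, and p-values were adjusted over all genes by Benjamini-Hochberg. Ratios of TPM were tested with exact two-sided permutation tests (scipy 1.17.1). Alternatives were RLE size factors, DESeq2 1.42.0, no filter or a stricter one, a replicate block, limma 3.58.1 on log2(TPM + 1), the ribosomal transcript as a covariate or its 6 high libraries left out, only the groups compared, and each library left out in turn. The fit was tested on simulated data, with genes of all levels changed by known amounts. At a true log2 change of 0.25, 39.3% were called in the right direction for TNFR2 against the control at 18 h. For OX40 at 18 h it was 44.3%. Of unchanged genes, 0.07% and 0.04% were called. A change of that size could therefore go uncalled.

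The members and lists were chosen with earlier results of these data known. Named from each list were up to 4 genes with the smallest p at 18 h against resting cells and up to 3 called genes with the smallest p over the 8 agonist comparisons, and for each member the 2 most correlated genes. Slc40a1 and Ftl1, which hold a hairpin match, were named after their values were seen, and so was Slc43a1, a relative of Slc43a2. Exact intervals of the Slc7a11 and Slc40a1 count ratios cover counting error only, and those of log2 fold changes come from the edgeR fit.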

Additional observations from a re-analysis of the deposited data

How the results depend on the processing

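The calls of Slc3a2, Slc7a5, Slc7a6, Slc7a1, Slc1a5, Slc38a1 and Tfrc at 18 h against resting cells held in all 9 other settings and all 6 fits without 1 library, and so did those of Tfrc and Slc1a5 between 36 h and 18 h. Counts of members called in other settings, here and above, are given without the share of all genes called in that setting. A count that moved is therefore not a result about the members alone. Leaving out 1 library gave 8 to 9 members called at 18 h (the call lost was that of Slc7a11) and 6 to 6 at 36 h against resting cells, and 3 to 5 between the times. Against the control of the same time, the ranges at 18 h were 4 to 5 for TNFR2, 1 to 3 for 4-1BB, 0 to 2 for DR3 and 0 to 3 for OX40. At 36 h they were 1 to 3, 0 to 3, 0 to 1 and 0 to 2. The 4-1BB count at 36 h was 0 without 4-1BB library 1, and the DR3 count at 18 h was 2 without DR3 library 1. The count for OX40 at 18 h moved by over 1.5 times without control library 1, 2 or 3 or OX40 library 2. For effects at 36 h against 18 h the ranges were 0 to 1 (4-1BB and OX40), and for the joint test at 18 h they were 1 to 4. Pair counts at 18 h ranged over 0 to 2 (TNFR2 against 4-1BB, DR3 against OX40), 0 to 1 (TNFR2 against DR3) and 0 to 3 (TNFR2 or 4-1BB against OX40). The light chain ratio ranged over 0.874 to 0.919 in resting cells, 1.41 to 1.44 at 18 h and 1.5 to 1.52 at 36 h, and with members only as light chains the resting ratio was 0.706.

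On log2(TPM + 1) with limma, members called numbered 2 between 36 h and 18 h, 0 for 4-1BB at 18 h, 0 for OX40 at both times, 1 for 4-1BB and 0 for DR3 at 36 h, 1 in the joint test at 18 h, 0 for TNFR2 against 4-1BB or OX40 and for 4-1BB against OX40, and 2 for DR3 against OX40. There Vars turned to -0.23 at 18 h and -0.24 at 36 h, Ptprs at 36 h to -0.02, and Slc43a2 with the TNFR2 agonist at 36 h to 0.03. Without the 6 libraries high in the ribosomal transcript, which left 1 control at 18 h that is assumed to vary like the other groups, the counts were 2 between the times, 2 for TNFR2, 1 for 4-1BB and 0 for OX40 at 18 h, 0 for OX40 at 36 h, and 0 in the joint test and the called pairs. With that transcript as a covariate they were 1 and 0 for OX40 at 18 h and 36 h, 2 for TNFR2 at 36 h, 1 in the joint test, and 0 for 4-1BB or DR3 against OX40.

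For TNFR2 at 36 h, RLE factors, DESeq2, no filter, a stricter filter and only the groups compared each gave 3. DESeq2 and no filter each gave 1 for DR3 at 18 h and 1 for TNFR2 against DR3, and 2 for TNFR2 against 4-1BB; DESeq2 gave 2 for 4-1BB against OX40. No filter gave 1 for OX40 at 36 h, 1 in the joint test, 1 for TNFR2 against OX40 and 0 for 4-1BB or DR3 against OX40. The stricter filter gave 4 for OX40 at 18 h, 2 for DR3 at 36 h, 2 for TNFR2 against 4-1BB and 1 for the difference of times with TNFR2 and with OX40. Only the groups compared gave 1 for the difference of times with 4-1BB, 0 in the joint test, 2 for TNFR2 against 4-1BB, 1 for TNFR2 against OX40 and 0 for 4-1BB or DR3 against OX40. The cause of these moves was not tested.

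No pairing by replicate number was seen: correlations of same-numbered deviations ranged from -0.167 to 0.137. With so few libraries per group this cannot exclude a shared origin, which the labels do not give. With the replicate block, the joint test at 18 h called 1 and 4-1BB against OX40 called 0, and no other member count moved by over 1.5 times.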
